A study of Mus musculus with 40 samples.

Results

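The genes described here are 200 of the 1713 rows of a count table for Alistipes, a genus of gut bacteria of the order Bacteroidales. They are the 200 rows with a gene symbol whose counts, summed over the 10 libraries of mice fed 2.5% broccoli powder, were highest. In all 843 rows of that table carried a symbol, and the other 870 rows, which carry only a locus number, could not be named. Because the 2.5% counts chose the genes, those counts are given as a description and no test uses them: the members were chosen by these summed counts. The members just inside the limit were feoB and yoaB with 126 counts each, pepT with 125, and ebgA and lacZ_1 with 124 each. The rows just outside were argS, gyrB_1, rplS and rpoA with 123 counts each and rnfC with 121.

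The libraries come from cecal contents of C57BL/6 mice. Every mouse, those without broccoli included, ate the Total Western Diet, a rodent diet built on Western nutrient intakes, from 3 weeks of age for 6 weeks. In the next 3 weeks broccoli powder made up 0.5%, 1% or 2.5% of that diet, or none of it (0%), with 10 libraries at each dose. Ribosomal RNA was depleted before sequencing, and counts were deposited for 6 bacterial genomes, of which Alistipes is 1. The labels do not say whether libraries of 1 dose came from separate cages, so p-values measure the spread between these libraries only. In such bulk RNA, fewer cells of a bacterium and less RNA per cell cannot be told apart.

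Alistipes and its relatives live by breaking down proteins and plant and host glycans. They bind large molecules at the outer membrane through TonB-dependent receptors, split them, and carry the pieces into the cell. Pectin, a major part of vegetable cell walls, yields galacturonate, rhamnose, arabinose, xylose and some fucose. Each has a short pathway that starts with an isomerase and leads to glycolysis or the pentose phosphate pathway. Many Bacteroidales then turn phosphoenolpyruvate into succinate and propionate, using phosphoenolpyruvate carboxykinase, fumarate reductase and methylmalonyl-CoA mutase.

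The 200 genes held 1161 counts at 0%, 1524 at 0.5%, 4086 at 1% and 51009 at 2.5%. The lowest, median and highest library held 44, 97 and 253 counts at 0%, 27, 104.5 and 419 at 0.5%, 97, 207.5 and 1113 at 1%, and 1324, 3799 and 15136 at 2.5%. Every 2.5% library lay above every library of the other doses on this sum, which the choice of genes favours, while the 3 lower doses overlapped. As a share of all counts in the 6 tables, the genes took 0.0179% ± 0.0124 at 0%, 0.0199% ± 0.0215 at 0.5%, 0.0570% ± 0.0561 at 1% and 0.511% ± 0.328 at 2.5% (SD, n = 10 each). On that scale the highest 1% library, at 0.178%, reached above the lowest 2.5% library, at 0.159%. These shares depend on F. rodentium, which held 72.8% ± 18 of a library's counts at 0%, 76.1% ± 13.2 at 0.5%, 46.1% ± 30.8 at 1% and 10.7% ± 10.6 at 2.5% (SD, n = 10 each). With F. rodentium left out of the total, the share was 0.0787% at 0%, 0.0690% at 0.5% and 0.142% at 1%, so that the 0.5% mean lay below the 0% mean. Each of these shares rose by more than its SD, while the 2.5% share changed by less than its SD. The ratio of the 2.5% share to the 0% share was thus smaller on this scale. A single library, 2.5% replicate 4, supplied 29.7% of the 2.5% counts, and without it the 2.5% share was 0.425%.

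**Figure D1:**
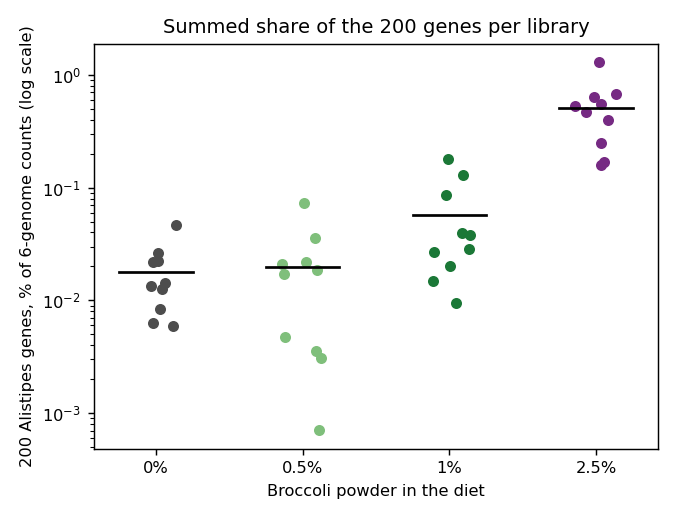
Summed counts of the 200 Alistipes genes as a percent of all counts in the 6 tables (log axis) at 0, 0.5, 1 and 2.5% broccoli; each point is 1 library and the bar is the mean of 10. The 0, 0.5 and 1% libraries overlap, and the 2.5% libraries run from 0.159% to 1.29%.

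Most of these genes were already counted below 2.5%. Of the 200, 78 had at least 1 count at 0%, 180 at 0.5% and 199 at 1%. The exception at 1% was cydA, a subunit of the cytochrome bd oxidase, which had 3 counts at 0.5%. The number seen moved with depth. A library held 12 to 44 of the genes at 0%, 10 to 121 at 0.5%, 32 to 169 at 1% and 174 to 200 at 2.5%. The Alistipes counts of these libraries were 51 to 336, 61 to 1508, 338 to 3479 and 3692 to 44385 at 0, 0.5, 1 and 2.5%. At like depth the order of the doses differed between pairs of libraries and with the measure of depth. By Alistipes counts, the 0% library held more of the genes in most of the pairs given here. The library 0.5% replicate 6 held 36 of the genes at 300 counts, against 44 in 0% replicate 1 at 336 counts. Likewise 0.5% replicate 10 held 10 at 123 counts, against 23 in 0% replicate 6 at 121 counts, and 1% replicate 1 held 32 at 338 counts. The other way, 0.5% replicate 5 held 24 at 141 counts, against 21 in 0% replicate 8 at 143 counts. By counts on the 200 genes, 0.5% replicate 7 held 73 at 210 counts, against 44 in 0% replicate 1 at 230. On that measure 1% replicate 5 held 42 at 115 counts, against 24 in 0% replicate 7 at 119. There 0.5% replicate 5 held fewer, 24 at 91 counts, against 29 in 0% replicate 5 at 92. The part of depth in the number seen was not tested. All 10 of the 2.5% libraries held counts for 137 of the genes.

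**Figure D2:**
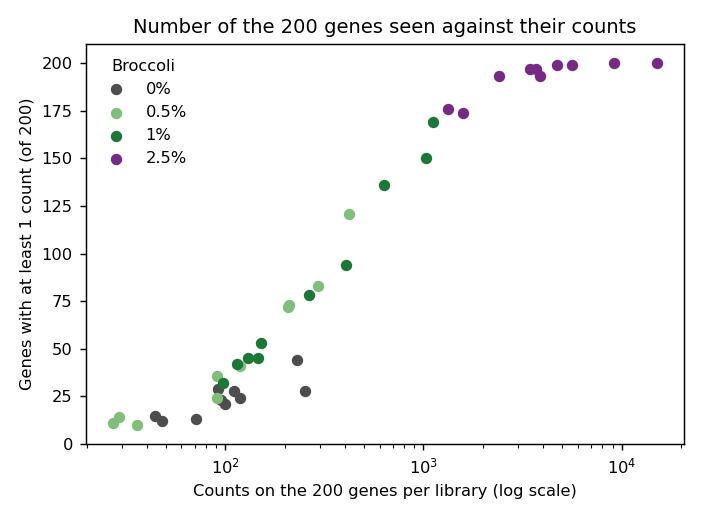
Number of the 200 genes with at least 1 count in a library (vertical axis) against that library's summed counts on the 200 genes (horizontal log axis), coloured by dose. The 0% libraries hold 12 to 44 of the genes and the 2.5% libraries 174 to 200.

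By function, the 2.5% counts were led by sugar use, and by translation where its functions are summed. The 30 genes of the translation machinery (ribosomal proteins, translation factors and aminoacyl-tRNA ligases) held 8592 counts, or 16.8% of the members' counts. Taken apart, these functions held 6.51%, 6.06% and 4.27%, each less than sugar use. The 33 genes for glycoside hydrolases and sugar use held 8072 counts, or 15.8%. The 22 genes of DNA replication and repair held 4438 counts (8.70%), and the 10 genes of glycolysis and gluconeogenesis held 4129 (8.09%). These sums depend on how many members a function has and how long its genes are, and gene lengths were not used here, so they rank functions by reads and not by transcripts.

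The counts were divided otherwise at 0%. Translation machinery held 537 counts at 0% (46.3%), 336 at 0.5% (22%) and 807 at 1% (19.8%). Sugar use held 30 counts at 0% (2.58%), 183 at 0.5% (12%) and 595 at 1% (14.6%). Over single libraries the sugar use percentage had a median of 2.39 at 0% (0 to 12.5), 10.8 at 0.5% (1.10 to 18.4), 14.8 at 1% (6.96 to 17.9) and 15.4 at 2.5% (11.7 to 19.9). The 0% and 2.5% libraries thus overlapped narrowly, through 1 end of each range, and the 1% and 2.5% libraries overlapped broadly. DNA replication and repair held 13, 130 and 288 counts at 0, 0.5 and 1% (1.12%, 8.53% and 7.05%), and glycolysis and gluconeogenesis held 211, 140 and 393 (18.2%, 9.19% and 9.62%).

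**Figure D3:**
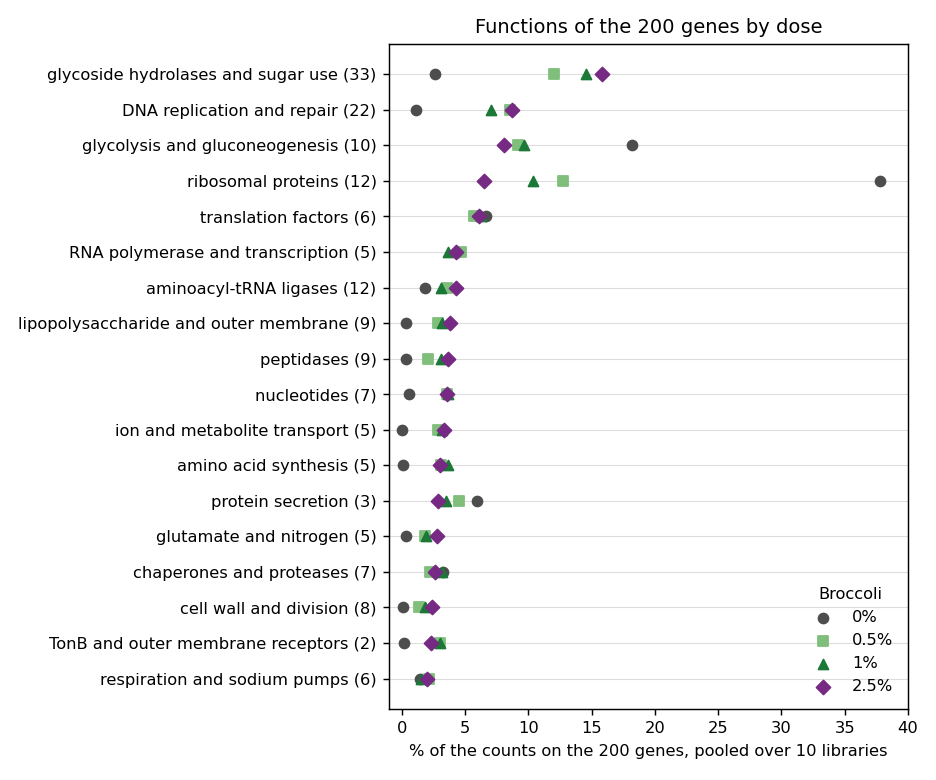
Percent of the 200 genes' summed counts (horizontal axis) held by the functions with most counts, at 0, 0.5, 1 and 2.5% broccoli, pooled over the 10 libraries of a dose, with the number of genes in brackets. Ribosomal proteins stand at 37.8, 12.7, 10.4 and 6.51%, and sugar use at 2.58, 12, 14.6 and 15.8%.

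At 0% a handful of genes made up much of what was counted. The 5 most counted members there were rplE (ribosomal protein L5), rpmE2 (a form of ribosomal protein L31), ntpB (a subunit of a V-type ATPase), rpsA (ribosomal protein S1) and pckA (phosphoenolpyruvate carboxykinase). They held 574 counts at 0%, or 49.4% of the members' counts, with 13.6 to 72.9% in single libraries. They held 185 counts at 0.5% (12.1%), 419 at 1% (10.3%) and 2564 at 2.5% (5.03%). Without them the other members held 587, 1339, 3667 and 48445 counts at 0, 0.5, 1 and 2.5%. Choosing genes by their 0% counts favours a lower share at the other doses. The 5 members most counted at each other dose held 13.8% of the members' counts at 0.5%, 11.8% at 1% and 9.75% at 2.5%.

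Gene by gene, rplE had 1, 13 and 28 counts in the lowest, median and highest 0% library, 0, 2.5 and 15 at 0.5%, 0, 2.5 and 22 at 1%, and 9, 35.5 and 134 at 2.5%. The pooled level per count of the 6 tables at 1% was 0.464 times that at 0% for rplE, 0.652 for rpmE2, 0.743 for ntpB, 0.938 for pckA and 0.989 for rpsA. Because the 5 genes were chosen by their 0% counts, these ratios and any test against 0% favour a fall. None of these 5 passed the edgeR test between 1% and 0%, and the nearest was rplE, with a log2 fold change of -1.56 ± 0.74 (SE, adjusted p = 0.0992), below the 0% mean in all 10 of the 1% libraries. When the same test was scaled to the Alistipes counts alone, rplE fell by 1.54 on the log2 scale at 1% relative to 0% (edgeR, adjusted p = 0.036), and ntpB fell by 2.07 at 0.5% relative to 0% (edgeR, adjusted p = 0.048).

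The genes that make up these 0% counts include families that other gut bacteria share. Of the genes leading at 0%, rplE, rpsA and pckA share a symbol with several of the other tables. The symbol rpmE2 stands in D. muris only among them, and ntpB in none. Of the 78 members seen at 0%, 53.8 to 82.1% carry a symbol that also stands in another of the 6 tables, against 34.4 to 83.6% of the 122 not seen. By table, the genes seen and those not seen at 0% shared a symbol in 82.1 and 83.6% of cases in D. muris, 57.7 and 46.7% in F. rodentium, 71.8 and 56.6% in both Acetatifactor and L.bacterium335, and 53.8 and 34.4% in X. muris. These differences were not tested. Whether reads of other bacteria were counted on these genes was not tested. The rows without a symbol held 19.2% of the Alistipes counts at 0%, 46.2% at 0.5%, 45.4% at 1% and 46.9% at 2.5%, and the 200 members held 71.7% at 0% (95% exact interval 69.4 to 73.9, counting error only), 32.7% at 0.5%, 34.5% at 1% and 31.6% at 2.5%.

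The 2.5% libraries differed in how they ordered the 200 genes. With each library's counts set against the sum of the other 9, over 200 genes that these libraries chose, Spearman's rho ran from 0.26 in replicate 10 and 0.36 in replicate 3 to 0.67.

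The sugar genes included 21 that act on the sugars of plant cell walls, grouped after their values had been seen. Together they held 27 counts at 0%, 118 at 0.5%, 421 at 1% and 5619 at 2.5%, or 2.33, 7.74, 10.3 and 11% of the members' counts. In single 2.5% libraries they took 8.08 to 14.9% (median 10.7), against 0 to 12.5% (median 1.96) in 0% libraries. At 0%, 6 of the 21 had any count, at 0.5% 19 had, and at 1% all 21 had. Of the 2.5% counts on all 843 rows with a symbol, the 21 genes held 6.55%.

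Galacturonate and pectin were the best represented, with 8 genes and 22, 43, 194 and 2130 counts at 0, 0.5, 1 and 2.5%. The first step in galacturonate use is the uronate isomerase uxaC, which had 2, 11, 38 and 567 counts at 0, 0.5, 1 and 2.5%, with 7 to 203 per library (median 41) at 2.5%. The tagaturonate reductase uxaB had 12, 12, 50 and 468 counts, and was the plant sugar gene with most counts at 0%. The altronate dehydratase uxaA, next in that route, had 0, 8, 18 and 156 counts. Its product is phosphorylated by the kinase kdgK (5, 0, 5 and 157 counts) and split by the aldolase kdgA (0, 4, 12 and 144 counts). The isomerase kduI, which acts on the unsaturated uronates left by pectin lyases, had 3, 7, 20 and 241 counts. Upstream of these, yteR_2 (a rhamnogalacturonyl hydrolase in Bacillus) had 0, 0, 20 and 183 counts, and the hexuronate transporter exuT_1 had 0, 1, 31 and 214.

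Arabinose and xylose followed with 7 genes and 2, 41, 115 and 1993 counts. The xylose isomerase xylA had 2, 9, 31 and 522 counts at 0, 0.5, 1 and 2.5%, with 8, 35.5 and 201 in the lowest, median and highest 2.5% library. The hydrolase hypBA1, which releases arabinose in Bifidobacterium, had 0, 4, 22 and 413 counts, and the xylosidase xyl3A had 0, 12, 20 and 330. The arabinose isomerase araA (0, 2, 7 and 183), the ribulokinase araB (0, 6, 19 and 211), the xylulokinase xylB (0, 4, 6 and 160) and the ribulose phosphate epimerase ulaF (0, 4, 10 and 174) complete the route into the pentose phosphate pathway. No member of the arabinose and xylose set other than xylA had a count at 0%.

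For rhamnose, the isomerase rhaA had 0, 16, 41 and 380 counts, the kinase rhaB 3, 3, 21 and 225, the aldolase rhaD 0, 3, 12 and 200, and the transporter rhaT 0, 4, 10 and 165. For fucose, the isomerase fucI had 0, 2, 11 and 274 counts, and fucO, a reductase of the lactaldehyde that both sugars yield, had 0, 6, 17 and 252. Other sugar genes among the 200 were sglT_4, a sodium-coupled sugar transporter (0, 15, 27 and 355), and 3 lacZ copies with ebgA, all beta-galactosidases, which held 2, 19, 39 and 754 counts together. The outer membrane gene susC, of the starch and glycan uptake system, had 0, 0, 5 and 129 counts.

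**Figure D4:**
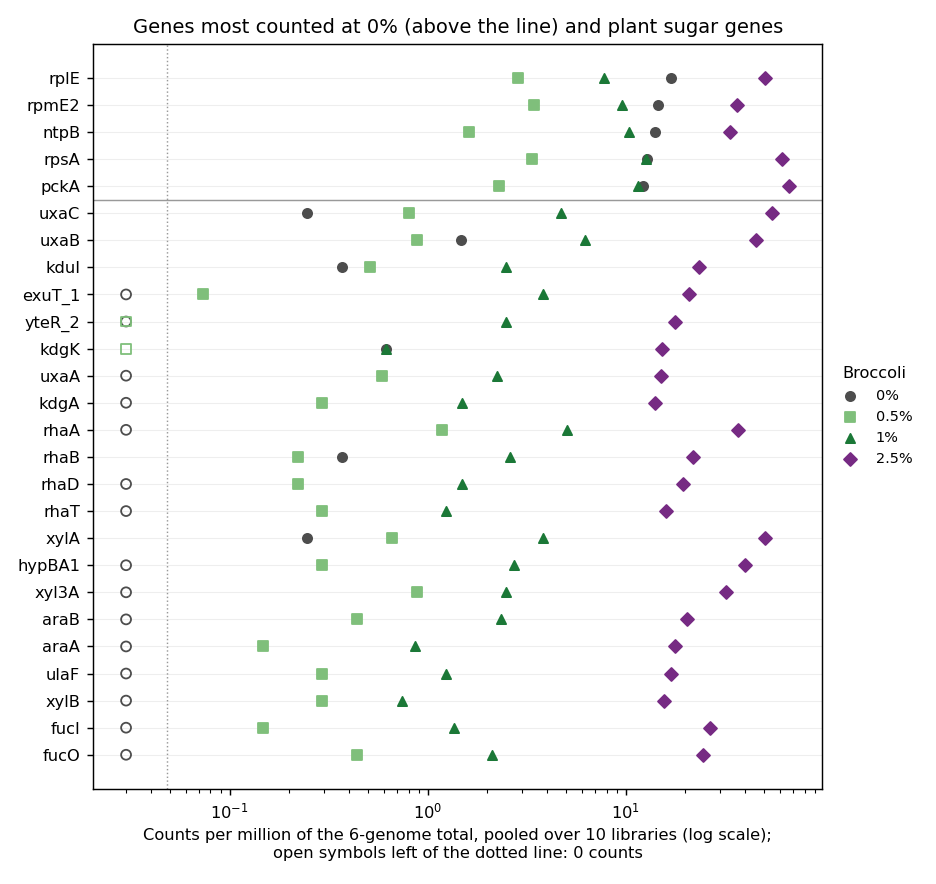
CPM (counts scaled to the 6-table total), pooled over the 10 libraries of a dose (log axis), for the 5 genes most counted at 0% (above the grey line) and the 21 plant sugar genes; open symbols left of the dotted line mark 0 counts at a dose. Of the 21 genes, 6 have counts at 0% and all have counts at 1% and at 2.5%.

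Glycolysis, which such sugar routes can feed, had the members ppdK, pckA, pgcA, pfp, gapA, eno, cbbA, pgi, pgk and tpiA. The most counted at 2.5% was ppdK, pyruvate phosphate dikinase, with 2, 14, 69 and 910 counts at 0, 0.5, 1 and 2.5% and 18 to 303 per 2.5% library. The gene pckA, which joins glycolysis to the succinate route, had 100, 31, 93 and 689 counts, and the phosphoglucomutase pgcA had 48, 23, 55 and 585. The pyrophosphate-dependent phosphofructokinase pfp had 2, 20, 33 and 516. In this set pckA, pgcA, gapA and cbbA (the aldolase) held nearly all of the 211 counts at 0%, with 100, 48, 32 and 27.

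The 4 genes grouped under the succinate and propionate route were pccB, mutB, mdh and fumB, with 26, 61, 55 and 856 counts together. That sum leaves out genes of the route that were grouped elsewhere. These are pckA (100, 31, 93 and 689 counts), grouped under glycolysis, and frdA, grouped under respiration. The carboxylase subunit pccB had 20, 27, 23 and 301, the methylmalonyl-CoA mutase subunit mutB 5, 15, 10 and 251, and the malate dehydrogenase mdh 0, 6, 16 and 154. In respiration and ion pumping, the pyrophosphate-driven pump hppA1 had 0, 2, 14 and 283 counts, the fumarate reductase subunit frdA 16, 20, 22 and 194, and the oxaloacetate decarboxylase subunit oadA 1, 2, 7 and 156. The glutamate dehydrogenase gdhB had 0, 10, 41 and 489 counts, while the histidine-degrading enzymes hutU and hutH had 0, 6, 12 and 343 and 0, 3, 12 and 205. The other nitrogen gene among the first 3 was the aspartate aminotransferase aspC, with 0, 9, 5 and 215.

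Among genes of protein synthesis, the elongation factor Tu gene tufA was the most counted member of all at 2.5%, with 12, 21, 98 and 1255 counts. Its 2.5% libraries ran from 13 to 431 (median 75.5). The elongation factor G copies fusA_1 and fusA_2 had 2, 14, 46 and 678 and 4, 9, 28 and 363 counts, and the initiation factor infB 45, 23, 36 and 493. Ribosomal protein genes had 37.8% of the members' counts at 0%, 12.7% at 0.5%, 10.4% at 1% and 6.51% at 2.5%, with rpsA at 104, 46, 102 and 633 counts, rplE at 137, 39, 63 and 520, and rpmE2 at 119, 47, 77 and 374. One library stood apart, 2.5% replicate 9, where ribosomal proteins took 17.7%, and without it the pooled value at 2.5% was 6.16%. The 12 tRNA ligases held 21, 55, 125 and 2176 counts, led by ileS (280 at 2.5%), leuS (276) and thrS (274).

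Transcription and RNA turnover followed. The RNA polymerase subunit genes rpoB and rpoC had 19, 31, 58 and 874 and 28, 27, 62 and 811 counts, and the termination factor rho 1, 7, 11 and 208. The helicase recQ led DNA repair with 3, 9, 29 and 458, ahead of the replication initiator dnaA with 6, 6, 21 and 331 and the gyrase copy gyrA_1 with 0, 10, 41 and 326. For nucleotides, carB, of carbamoyl phosphate synthesis, had 5, 15, 12 and 364, the uridine kinase udk_1 0, 9, 25 and 342, and the purine phosphorylase punA 0, 8, 26 and 298.

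At the cell surface, btuB_2 and bepE_2 were the second and the third most counted members. The receptor btuB_2, named for vitamin B12 uptake in Escherichia coli, had 2, 41, 107 and 995 counts and 17, 87.5 and 360 in the lowest, median and highest 2.5% library. The efflux transporter bepE_2 had 0, 18, 55 and 939. Next to them, dtpB, a peptide permease, had 0, 8, 33 and 240, and bepE_3 0, 4, 9 and 204. The Tol system gene tolQ_2 had 1, 15, 48 and 402, and lpxC, of lipid A synthesis, and the outer membrane channel oprM_2 had 209 counts each at 2.5% with 0 at 0%. In the cell wall, mrcA (a penicillin-binding protein), cpoB_2 and ftsA had 185, 168 and 163 counts at 2.5% and 0 at 0%.

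Amino acid and protein use gave the remaining larger sums. The phosphoserine aminotransferase serC had 0, 22, 79 and 725 counts, glyA (serine hydroxymethyltransferase) 1, 15, 30 and 234, and dapL, of lysine synthesis, 0, 0, 4 and 199. The methionine aminopeptidase map had 1, 5, 28 and 385, the endopeptidase pepO 0, 5, 9 and 268, and the dipeptidyl peptidase dpp5 1, 4, 18 and 229. The chaperone dnaK had 30, 15, 47 and 314, the protease lon2 5, 6, 28 and 265, and ftsH 3, 2, 4 and 164. The glycine cleavage genes gcvP and gcvT had 2, 6, 32 and 366 and 0, 4, 18 and 208, and the pyridoxine gene pdxB_1 0, 2, 17 and 327. The remaining 13 genes fitted no list, with icmF (0, 6, 28 and 371) and the ppGpp synthetase copies relA_1 and relA_2 (5, 13, 20 and 231; 1, 5, 5 and 189) first.

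Lower doses allowed tests that the choice of members did not use. In edgeR's quasi-likelihood test of 30 libraries at 0, 0.5 and 1%, scaled to the 6-table totals, 506 Alistipes features with 10 or more counts were tested, among them 171 of the 200 members. The 29 others had too few counts. At 1% relative to 0%, 20 of the 171 members rose (11.7%) and 0 fell. Of all 506 features 51 rose, which is 10.1%, so the members' share was close to the background. The median log2 fold change was 3.48 for the members and 3.46 for all features, and 242 features were higher and 1 lower at an unadjusted p under 0.05. The filter bears on these values. Alistipes held 1620 counts at 0%, 4667 at 0.5% and 11846 at 1%, so features reached 10 counts mainly through the higher doses. It thus favours features that are higher at 1%, in the calls and in the medians. With no filter, 7 of the 20 members kept their call.

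The 20 members that rose at 1% came from several of the functions above, and in each the 1% counts stood in 5 or more of the 10 libraries. Of the 20, 15 had 0 counts at 0%, so they reached the filter of 10 counts only through the higher doses. Their calls are not independent of that filter. The smallest adjusted p-values were those of serC and btuB_2. The gene serC had counts in 8 of 10 libraries at 1% (median 3.5, highest 28), against 0 in every 0% library, so its pooled level was at least 26.5-fold higher (edgeR, adjusted p = 0.00123). The gene btuB_2 had a median of 8 and a highest count of 36 at 1%, against 2 counts in 1 library at 0%, 53.9 times as many per count of the 6 tables (95% interval from counting error 14.6 to 451; edgeR, adjusted p = 0.00123; log2 fold change 5.25 ± 1.22 SE). Next came bepE_2, at least 18.5-fold higher (edgeR, adjusted p = 0.00529; 7 of 10 libraries with counts), and ppdK, at 34.8 times the 0% level (interval 9.27 to 293; edgeR, adjusted p = 0.0089; 6 of 10 libraries).

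Behind them, gdhB, gyrA_1 and rhaA each had 41 counts at 1% and 0 at 0%, which makes each at least 13.8-fold higher (edgeR, adjusted p of 0.0121, 0.0135 and 0.0156). They had counts in 5, 7 and 7 of the 10 libraries at 1%. The others of the first 10 were tolQ_2 (48 counts against 1, adjusted p = 0.0214), rplP (32 against 0, adjusted p = 0.0274) and dtpB (33 against 0, adjusted p = 0.0291). Of the 20 plant sugar genes tested 2 passed, rhaA and exuT_1, which is 10% and close to the 10.1% of all features. The counts of exuT_1 were 31 at 1% against 0 at 0% (edgeR, adjusted p = 0.0419). The other 18 did not pass and araA had too few counts, which does not show that they did not change. Scaled to the Alistipes counts, 11 of the 20 rose at 1% relative to 0% (55%, against 36% of all features), adding uxaC, uxaA, yteR_2, xylA, xyl3A, hypBA1, araB, rhaD and fucO (edgeR, adjusted p under the threshold of 0.05). The set was grouped after its values were seen, and nothing particular to it is read from that count. The translation factors tufA and fusA_1 passed too, tufA with 98 counts at 1% against 12 at 0% and a log2 fold change of 2.86 ± 0.96 (SE, edgeR, adjusted p = 0.0391).

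These calls rest on few counts and on the scale. At 1%, replicates 3 and 10 held 1113 and 1033 of the 4086 member counts, and 2 of the 20 members, serC and btuB_2, kept their call without both, as they did when F. rodentium was left out of the totals. Libraries numbered 76 to 81 in the titles, which the labels do not call a batch, hold 4 of the 0.5% libraries, 1 at 1%, 1 at 2.5% and 0 at 0%, and 10 of the 20 calls held without them. Scaled instead to the Alistipes counts with TMM factors, the median log2 fold change of all features at 1% relative to 0% was 2.78, against 3.46 with the 6-table totals. The features were thus not centred by this scaling, for which the 0% totals of 51 to 336 Alistipes counts are small. Calls made with it, those of the plant sugar genes included, are uncertain. On that scale 74 of the 171 members rose at 1% relative to 0% (43.3%, against 36% of all 506 features) and 1 fell, rplE, against 0.395% of all features that fell.

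At 0.5% relative to 0%, none of the 171 members passed, and among all 506 features 1 rose (0.198%) and 0 fell. In that comparison 22 features were higher and 8 lower at an unadjusted p under 0.05. DESeq2 gave 4 calls over all features there. Scaled to the Alistipes counts, 5 of the 171 members rose (2.92%, against 3.16% of all features) and 1 fell, ntpB (against 0.198% of all features). At 1% relative to 0.5%, edgeR called 0 of 506 features, with 150 higher and 0 lower at an unadjusted p under 0.05. The count rose to 61 when 0.5% replicate 2, the deepest 0.5% library for Alistipes, was left out.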

How the data were processed

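The authors deposited raw counts per feature, whole numbers with no normalization, in 6 tables of which each covers 1 bacterial genome. Per the labels' protocols, RNA from cecal contents was rRNA-depleted with QIAseq FastSelect and made into libraries with the KAPA RNA HyperPrep kit. The sources used here do not give the aligner, the counting program, the genome builds or the treatment of reads shared between genomes or gene copies. The 40 libraries were grouped by the treatment label, 10 per dose, and replicate numbers follow sample order and pair nothing. Totals over the 6 tables ran from 236483 to 5107249 counts per library, and no 2 of the 180 pairs within groups agreed within sampling noise (smallest chi-square per degree of freedom 6.49).

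Members, function lists and tests were chosen with earlier results of these data known. Symbol patterns were applied to 147 members, and 53 were set by hand after values were seen. The 13 genes that fitted no list are included in these numbers. The 40 members with a copy suffix are uncertain, since reads may be split among near-identical copies. Genes named with values are the 10 most counted, the 3 most counted of each function with 4 or more members, the first 10 called at 1% relative to 0%, and the 5 each side of the limit of 200. The plant sugar genes, the 5 genes leading at 0% and a few others were added after values were seen.

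Counts were tested with edgeR 4.0.16 (quasi-likelihood, two-sided, Benjamini-Hochberg over 506 features, threshold 0.05) in R 4.3.3, over the 30 libraries at 0, 0.5 and 1%, with the 6-table total as library size and at least 10 counts per feature. The bias-adjusted spread estimate was chosen over edgeR's older one because on simulated data the older one made more false calls. The older one was simulated at a single, large fold change only. For genes with 0 counts at 0% a lower bound is given, with a floor of 3 counts over the group, and for 1 to 3 counts a ratio with its 95% interval. Floors and intervals cover counting error only. DESeq2 1.42.0, other scalings, filters and left-out libraries were the alternatives. Sums, shares and figures used Python 3.11.15, pandas 2.3.3 and matplotlib 3.10.9.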

Additional observations from a re-analysis of the deposited data

Results flagged for a closer look

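In 14 of 43 sets of 10 values checked, the highest or lowest library lay farther from its neighbour than Dixon's 95% limit for 10 values. Chance flags about 1 in 20 such sets, and many of these sets share a library.

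For the summed share of the 200 genes, 0% replicate 9 stood at 0.0470% (next 0.0264), 0.5% replicate 2 at 0.0726% (next 0.0355) and 2.5% replicate 4 at 1.29% (next 0.670). The same library, 2.5% replicate 4, was the highest for 6 genes in CPM of the 6-table total: tufA at 366.7 (next 181.4), btuB_2 at 306.3 (next 132.8), ppdK at 257.8 (next 135.0), bepE_2 at 251.0 (next 120.9), serC at 227.2 (next 88.8) and fusA_1 at 171.0 (next 93.7). It was the top library for 159 of the 200 genes.

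In 2.5% replicate 9 the members took 42.9% of the Alistipes counts (next 34.6), the translation machinery took 29.4% of the member counts (next 18.7), ribosomal proteins took 17.7% (next 7.04), and peptidases took 1.58% (next 3.25). That library had 3692 Alistipes counts, the fewest at 2.5%. In 2.5% replicate 3 the unassigned genes took 5.80% of the member counts (next 4.59).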

How the results depend on the processing

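No paired analysis was possible because the labels carry no replicate numbers that link libraries across doses. Of the 51 calls at 1% relative to 0%, the count was 40 with TMM factors, 40 with DESeq2 and 36 with all 40 libraries in the fit, but 32 with RLE factors, 26 with no filter, 33 without libraries 76 to 81 (a separate run of numbers in the titles, with none at 0%; 10 of the 20 member calls held), 184 within the Alistipes total, and 22 to 109 leaving out 1 library at a time. Chosen after seeing the data, the total without F. rodentium gave 13, leaving out 1% replicates 3 and 10 gave 10, and the older edgeR estimate gave 391. Of the 20 members called, 2 to 20 kept their call over these alternatives, and 5 kept it in all 30 fits that left out 1 library. For 0.5% relative to 0% (1 call) the counts were 2 with RLE factors, 17 within the Alistipes total, 116 with the older estimate, 0 with all 40 libraries, 0 without libraries 76 to 81, 2 without 1% replicates 3 and 10, 4 with DESeq2, and 0 to 2 leaving out 1 library. For 1% relative to 0.5% (0 calls) the older estimate gave 64, and leaving out 1 library gave 0 to 61. With F. rodentium out of the total, the summed share was 0.0787% at 0%, 0.0690% at 0.5% and 0.142% at 1%, so the 0.5% mean lay below the 0% mean. The 2.5% share changed by less than its SD, so its ratio to the 0% share was smaller on this scale. At 2.5%, over all rows with a symbol (hand-assigned functions apply to members only), sugar use took 11.3%, plant sugars 6.55%, DNA replication and repair 6.79%, glycolysis 5.03% and translation factors 4.44%, while in the first 100 members DNA replication and repair took 6.37%, glycolysis 10.3% and translation factors 7.78%. The cause of these changes was not tested. Among the genes followed singly through the alternatives, the first 10 called members and other named members, no called gene changed sign. The sign of the remaining calls was not checked. Alistipes totals of 51 to 336 counts in the 0% libraries limit what can be seen there.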
